A study of Mus musculus with 6 samples.

Results

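The genes described here are the matrix metalloproteases (MMPs), the ADAM and ADAMTS proteases, the ADAMTS-like proteins and the tissue inhibitors of metalloproteases (TIMPs) of mouse skin. They are all rows of the deposited count table whose symbol starts with Mmp, Adam, Adamts, Adamtsl or Timp followed by a number. These were 54 of 14484 genes: 15 MMP, 13 ADAM, 17 ADAMTS, 5 ADAMTSL and 4 TIMP genes. Skin was compared between 3 libraries of mice with wild-type Atr (ATR +/+, called ATR WT) and 3 libraries of mice with ATR fl/fl, called ATR mD/mD, in which a portion of the kinase domain of ATR is deleted. Mice of both groups also carried Braf CA/+ and Cre +, on a C57BL/6-129J background. Braf CA is an allele of the kinase gene Braf that Cre switches to an oncogenic form, and nevi, benign lesions of pigment cells, are what the design text names as the material. Labels give neither the promoter that drives Cre nor the animals' age, and do not say whether each library is its own animal, so p-values measure only the spread between these libraries. Libraries are called WT 1 to WT 3 (wild types) and mD/mD 1 to mD/mD 3 (mutants), and values by genotype follow that order.

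MMPs are zinc-dependent proteases that cut collagens and other matrix proteins and are made as inactive precursors. ADAM proteins are membrane-bound relatives, several of which release growth factors and receptors from the cell surface, while ADAMTS proteins are secreted and act on procollagens, proteoglycans and other matrix proteins. TIMPs bind and block the active sites of these enzymes, and in skin the families take part in matrix turnover, wound repair and the remodelling that accompanies the hair cycle.

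Atr itself, read over the whole gene and so no check of a partial deletion, was at 17.6, 24.5 and 24.2 CPM in wild types and 20.8, 22.2 and 24.8 CPM in mutants. The 14484 genes carried between 34723600 and 46847751 counts per library, of which the 54 members held between 0.279% and 0.374%. Every member passed the filter on low counts, and Mmp2, Mmp14, Adamts1 and Timp1, taken as marks of the set, were present in all libraries. Fibroblast markers (8 of 8 genes) summed to between 7481 and 18026 counts per 1000000 (CPM), and keratinocyte markers (8 of 8 genes) to between 12144 and 19925 CPM, so markers of dermis and of epidermis were present in every library, as the skin label says. Hair genes divided the libraries across genotypes: averaged, the 30 hair shaft and matrix genes stood at 6.75, 6.99 and 6.97 log2 CPM in WT 2, WT 3 and mD/mD 3. They stood at 1.68, -0.35 and 1.88 log2 CPM in WT 1, mD/mD 1 and mD/mD 2. The first 3 are called libraries of high hair level below and the other 3 libraries of low hair level. They are not groups of the study, and values by hair level are descriptions with no test. Xist, the RNA that coats an inactive X, also divided the libraries, with 18050 to 29207 counts in WT 2, WT 3 and mD/mD 1 and 23 to 40 in the others. Y-linked genes divided them the opposite way, averaging -4.04, -3.61 and -3.68 log2 CPM in WT 2, WT 3 and mD/mD 1. They averaged 4.75, 5.17 and 5.17 log2 CPM in WT 1, mD/mD 2 and mD/mD 3. The Y-linked level used as a covariate below thus follows the same split as Xist.

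Promoters are shown for those MMP genes of the count table that lie near each other on chromosome 9, and for Adamts1 and Adamts20. MMP genes that the count table does not list, such as Mmp1b, which shares exon bases with Mmp12, are not shown. Adamts1 did not overlap between genotypes, as was so for 4.84% of all genes, and its adjusted p was 0.9999 (edgeR). Adamts20 had the widest gap by hair level. The RefSeq promoter table (GRCm38.p6) held 40 promoters of 36 members, each from 250 bases before to 50 bases after a transcription start. The motif searched was TGANTCA, the core of the binding site of AP-1 (Fos and Jun dimers), which reads the same on both strands apart from its central base and overlaps no other motif here. It was present in 4 of the 40 member promoters (10%), against 5.87% of 13947 promoters of genes in the count table. Capitals mark the motif. The first 4 sequences are the promoters of Mmp13 (chr9:7272264-7272563), Mmp12 at its second listed start (chr9:7347124-7347423), Mmp3 (chr9:7445572-7445871) and Mmp27 (chr9:7571146-7571445), all on the plus strand. Adamts1 (chr16:85803064-85803363) and Adamts20 (chr15:94404301-94404600) lie on the minus strand.
Mmp13: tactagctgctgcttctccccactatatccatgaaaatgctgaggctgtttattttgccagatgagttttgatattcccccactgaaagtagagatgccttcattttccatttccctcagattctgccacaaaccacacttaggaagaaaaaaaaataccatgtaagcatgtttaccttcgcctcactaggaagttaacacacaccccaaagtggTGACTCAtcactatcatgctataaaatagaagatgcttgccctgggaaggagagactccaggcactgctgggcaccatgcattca
Mmp12: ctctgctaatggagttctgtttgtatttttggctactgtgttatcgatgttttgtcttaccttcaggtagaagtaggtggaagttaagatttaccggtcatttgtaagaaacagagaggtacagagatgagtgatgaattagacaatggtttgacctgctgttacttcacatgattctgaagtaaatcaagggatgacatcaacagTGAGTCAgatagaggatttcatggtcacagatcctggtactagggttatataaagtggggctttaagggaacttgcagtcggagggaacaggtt
Mmp3: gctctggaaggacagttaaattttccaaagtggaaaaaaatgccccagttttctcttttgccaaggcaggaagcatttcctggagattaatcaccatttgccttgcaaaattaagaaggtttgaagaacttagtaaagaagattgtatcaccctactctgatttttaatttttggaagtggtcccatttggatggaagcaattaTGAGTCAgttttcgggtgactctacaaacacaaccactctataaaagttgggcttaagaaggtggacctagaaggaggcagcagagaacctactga
Mmp27: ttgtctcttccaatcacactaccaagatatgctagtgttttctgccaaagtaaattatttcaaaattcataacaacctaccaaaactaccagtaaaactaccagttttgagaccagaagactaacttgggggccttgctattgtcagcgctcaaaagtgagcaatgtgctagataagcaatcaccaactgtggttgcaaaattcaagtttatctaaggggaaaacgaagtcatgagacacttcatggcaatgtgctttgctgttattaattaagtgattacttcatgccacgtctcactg
Adamts1: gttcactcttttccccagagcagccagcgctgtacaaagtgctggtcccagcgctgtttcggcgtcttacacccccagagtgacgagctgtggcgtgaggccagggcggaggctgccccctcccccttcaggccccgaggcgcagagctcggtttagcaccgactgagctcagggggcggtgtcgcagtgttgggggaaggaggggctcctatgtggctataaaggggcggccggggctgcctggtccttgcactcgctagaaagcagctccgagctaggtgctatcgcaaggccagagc
Adamts20: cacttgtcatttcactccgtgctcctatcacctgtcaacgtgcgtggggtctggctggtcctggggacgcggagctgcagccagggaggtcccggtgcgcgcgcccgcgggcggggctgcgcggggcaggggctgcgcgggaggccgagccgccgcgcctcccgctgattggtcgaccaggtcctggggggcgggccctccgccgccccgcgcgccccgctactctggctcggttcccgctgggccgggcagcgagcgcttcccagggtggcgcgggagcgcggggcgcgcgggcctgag
In Mmp13, Mmp12 (second start) and Mmp3 the motif began 35, 44 and 46 bases before the listed start. The sequences of Mmp27, Adamts1 and Adamts20 hold no match in this window. No match was found at the first listed start of Mmp12 (chr9:7344147-7344446), whose window holds the start GENCODE gives the gene (7344381). Adam19 held the fourth match, 131 bases before one of its 3 listed starts. GC content was 43.7%, 40.7%, 40.0% and 38.7% in the promoters of Mmp13, Mmp12, Mmp3 and Mmp27 as printed. It was 64.7% in that of Adamts1 and 77.3% in that of Adamts20, beside a median of 60.3% over genes of the table. The listed start of Adamts20 lies inside the span GENCODE gives the gene (94270163 to 94465418), so it is not the outermost start. A match is a description of letters and says nothing of binding in this skin.

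Per length, levels ran over 3 orders of magnitude. RPKM here is CPM divided by the annotated exon length in kilobases, averaged over the 6 libraries. Inhibitors and interstitial matrix enzymes led: Timp2 was at 159 RPKM, Mmp2 at 120.1, Mmp3 at 69.8, Timp3 at 51.7 and Mmp14 at 38.7. Adam10, Adam15 and Adamts2 followed at 20.7, 18.2 and 17.4 RPKM, and Timp1 stood close to them at 17.2. At the low end, 18 members were under 1 RPKM, 9 of them ADAMTS genes, and Adamts19 was lowest at 0.117 RPKM. The median was 5.33 RPKM over the MMP genes, 3.11 over the ADAM genes, 0.878 over the ADAMTS genes, 1.20 over the ADAMTSL genes and 34.4 over the TIMP genes.

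**Figure D1:**
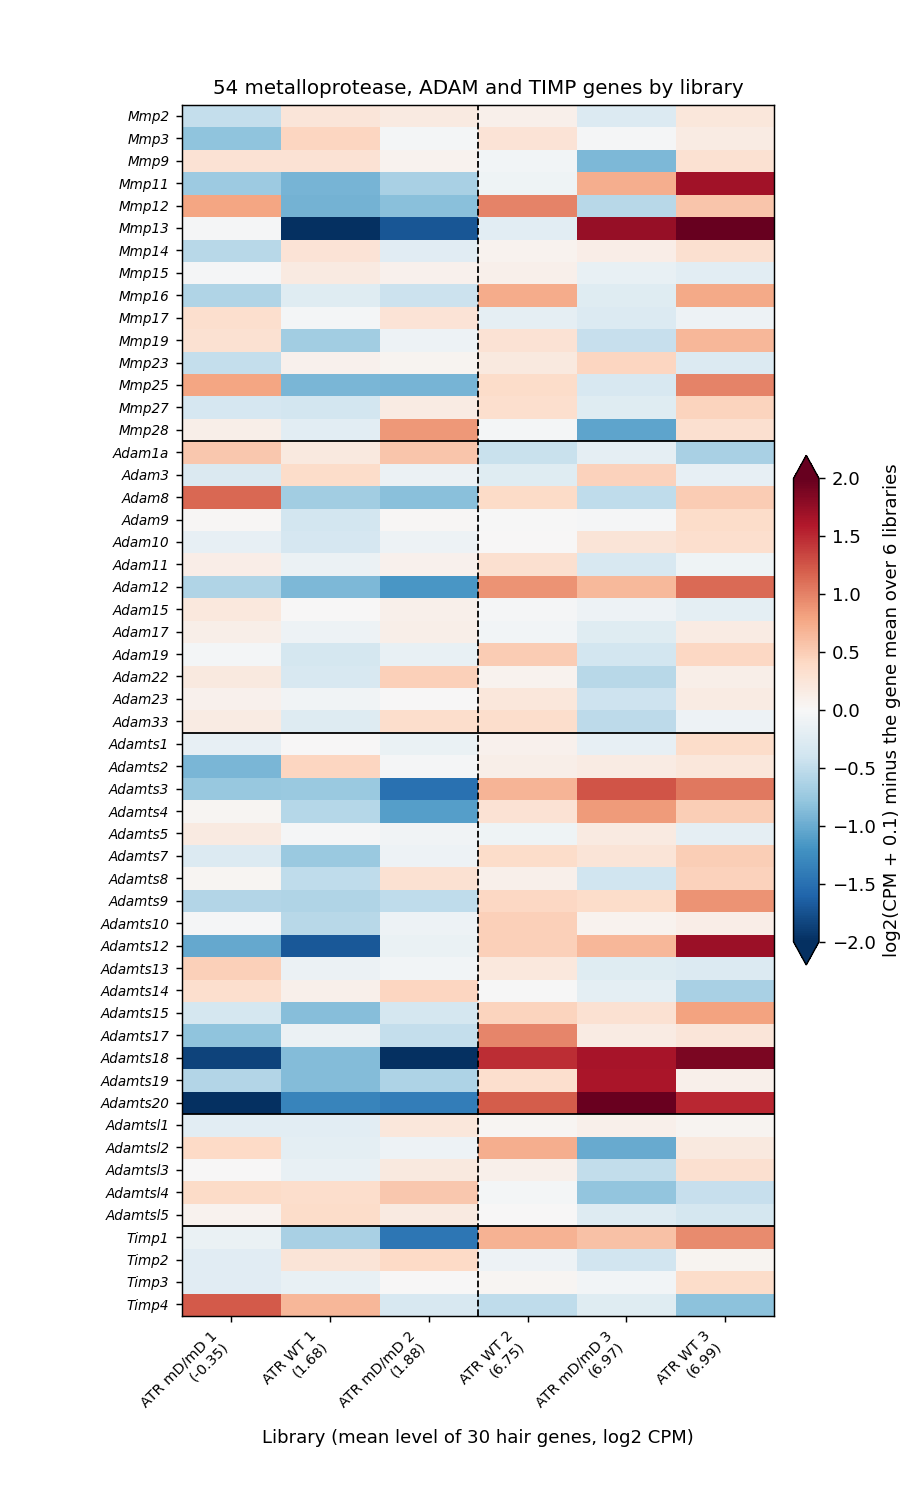
Each row is 1 of the 54 genes and each column 1 library, ordered by the mean level of 30 hair genes (in brackets, log2 CPM). Colour gives log2(CPM + 0.1) minus the gene's mean over the 6 libraries; solid lines part the subfamilies and the dashed line parts low from high hair level. Adamts3, Adamts18, Adamts20 and Adam12 are red in all 3 libraries of high hair level, while Mmp12 and Adam8 are red in WT 2, WT 3 and mD/mD 1.

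Between genotypes, no member passed the test: 0 of 54 had an adjusted p under 0.05 (edgeR quasi-likelihood), where 7 of 14484 genes, 0.0483%, did. The adjusted p was 0.9999 for all 54 members (edgeR), and DESeq2 and limma-voom called 0 members as well. Of all genes DESeq2 called 39 and limma-voom 7. At an unadjusted p under 0.05, edgeR gave 2 members, Mmp16 and Adamts1, both lower in mutants, beside 1.66% of all genes in either direction, 1.09% lower and 0.566% higher. DESeq2 gave 3 members at that level, the same pair and Mmp3, and limma-voom gave Mmp16 and Mmp3. The shares over all genes were 2.08% (DESeq2) and 1.78% (limma-voom). Single libraries moved the edgeR count: it was 5 without WT 1, when 3.65% of all genes were at that level. It was 0 without WT 2, WT 3 or mD/mD 1 (1.01%, 1.24% and 1.37% of all genes) and 1 without mD/mD 2 (1.43%). Without mD/mD 3 it was 9, when 7.01% of all genes were at that level. The mutant libraries left in that last fit were both of low hair level, and Adamts3, Adamts18 and Adamts20 were among its 9 members.

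As a set, 37 of the 54 members had a negative log2 fold change (ATR mD/mD against ATR WT), or 68.5%, where 48.0% of all genes did. Their median was -0.17, against 0.0070 over all genes. Single wild-type libraries moved this median: it was -0.28 without WT 1, -0.084 without WT 2 and -0.048 without WT 3. With the hair gene level or the level of Y-linked genes as a covariate it was -0.094 and -0.076. Marker lists lay on both sides. Lower in mutants were 8 of 8 fibroblast genes (median -0.32), 8 of 8 melanocyte genes (median -0.48), 30 of 30 hair genes (median -0.69), 3 of 4 neutrophil genes (median -0.29) and 6 of 8 skeletal muscle genes (median -0.069). Higher were 7 of 8 adipocyte genes (median 0.19), 7 of 8 endothelial genes (median 0.085), 6 of 8 macrophage genes (median 0.11), 6 of 8 keratinocyte genes (median 0.049) and 3 of 3 cartilage genes (median 0.35), while smooth muscle genes were 4 and 4. No marker gene passed the adjusted threshold (edgeR), and their part in the members' median was not tested. Inside the libraries of high hair level, mD/mD 3 lay below the mean of WT 2 and WT 3 in 40 of 54 members, with a median difference of -0.25 in log2 CPM. Over all genes it did so in 7531 of 14484, with a median of -0.016. Inside the libraries of low hair level the mean of mD/mD 1 and mD/mD 2 lay below WT 1 in 18 of 54 members, with a median of 0.22. Over all genes it did so in 7104 of 14484, with a median of 0.0064. Both differences were negative in 13 members and both positive in 9, beside 2923 and 2772 of all 14484 genes. Thus the direction of the set was not shared by the 2 levels of hair genes, in which each genotype had 1 or 2 libraries; this difference was not tested. In bulk skin, fewer cells of a type and less RNA per cell cannot be told apart.

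**Figure D2:**
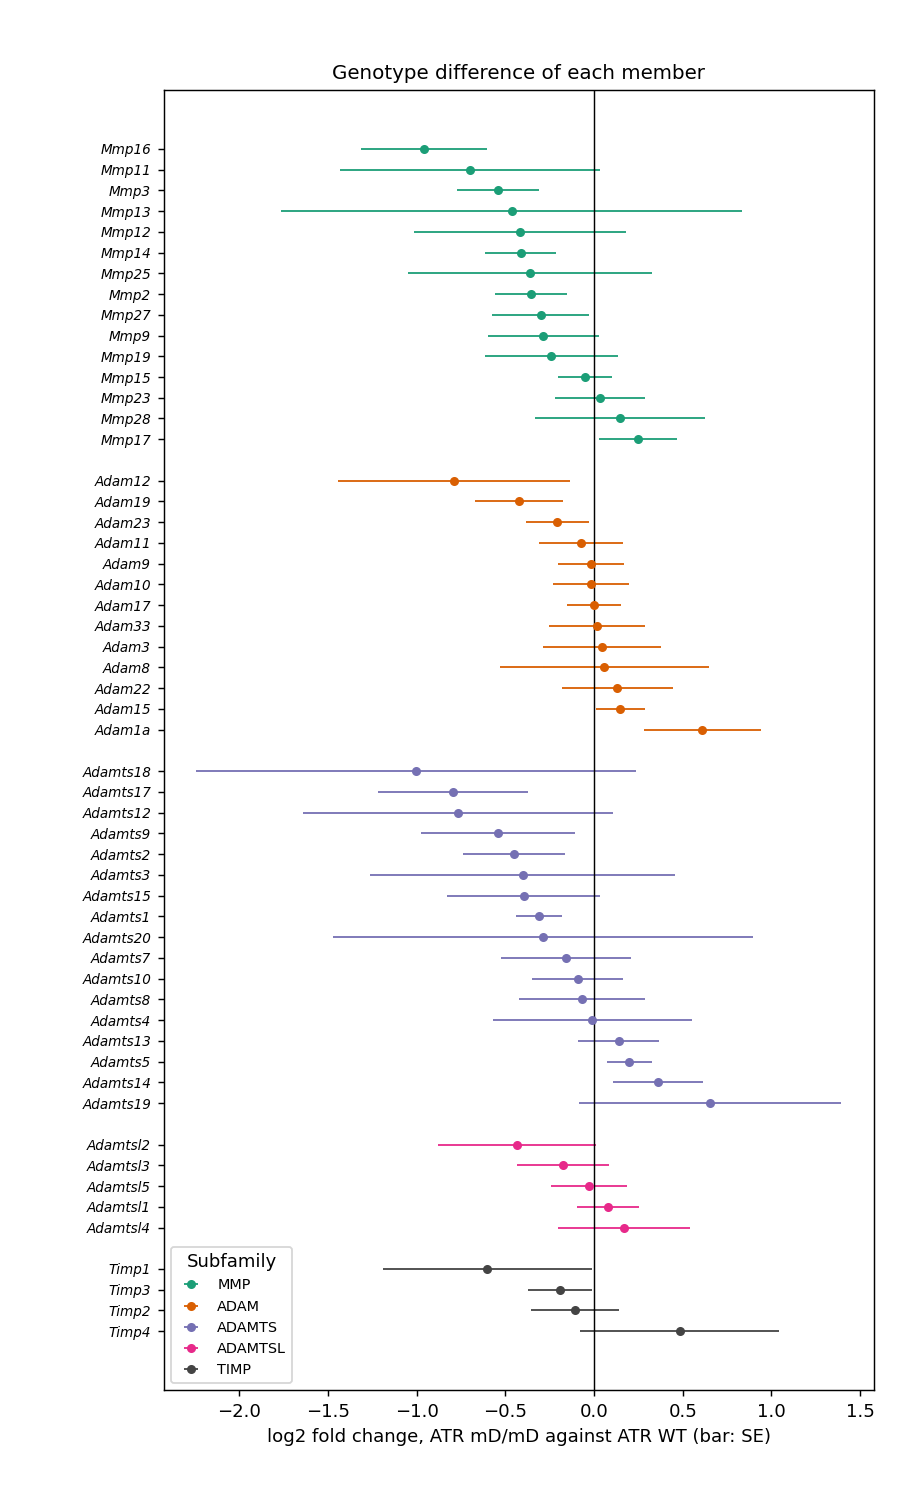
Log2 fold change of ATR mD/mD against ATR WT for each of the 54 genes (points) with its standard error (bars), by subfamily and ordered within each. Of 15 MMP genes 12 lie left of 0, and of 13 ADAM genes 6 do; Adamts18 and Adamts20 have among the widest bars.

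Among the MMPs, 12 of 15 were lower in mutants, at a median log2 fold change of -0.35 and a range from -0.96 (Mmp16) to 0.25 (Mmp17). Mmp3, or stromelysin 1, cuts proteoglycans, fibronectin and other MMP precursors. It was at 164, 147 and 137 CPM in WT 1, 2 and 3 and at 69.8, 118 and 119 CPM in mD/mD 1, 2 and 3. All wild-type libraries lay above all ATR mD/mD libraries, as was so for 2 of the 54 members and for 2.58% of all genes in that direction (2.26% in the other). The log2 fold change of Mmp3 was -0.54 (SE 0.230, unadjusted p = 0.0527, edgeR), and -0.33 without mD/mD 1. Mmp16, a membrane-type MMP, had low counts of 57, 140 and 159 in wild types and 42, 54 and 55 in mutants. Its levels were 1.57, 3.22 and 3.25 CPM against 1.20, 1.37 and 1.57, so that WT 1 and mD/mD 3 met. The log2 fold change was -0.96 (SE 0.356, unadjusted p = 0.0331, edgeR). With the hair gene level as a covariate it was -0.65 (unadjusted p = 0.0780, adjusted p = 0.978, edgeR).

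Mmp2 (gelatinase A) and Mmp14 work together, since the membrane-bound Mmp14 activates the Mmp2 precursor with the help of Timp2. Mmp2 was at 473, 427 and 464 CPM in wild types and at 285, 452 and 329 CPM in mutants. Mmp14 was at 272, 238 and 281 CPM against 153, 194 and 247. In both genes mD/mD 1 was lowest and 1 mutant library reached the wild-type range. Log2 fold changes were -0.35 for Mmp2 (SE 0.204, unadjusted p = 0.128) and -0.41 for Mmp14 (SE 0.202, unadjusted p = 0.0818, edgeR), and without mD/mD 1 they were -0.21 and -0.26. The 8 fibroblast markers summed to 7481 CPM in mD/mD 1 and to 16639 and 16508 CPM in mD/mD 2 and 3, beside 14179 to 18026 CPM in wild types. The collagens Col1a1, Col1a2 and Col3a1, which make up most of this sum, were the 3 markers lowest in mD/mD 1. The other 5 (Pdgfra, Dcn, Lum, Fbln1 and Dpt) were lowest in mD/mD 3, with Dcn at 1433 CPM there and 1815 CPM in mD/mD 1. No fibroblast marker was at 0, and their part in the MMP values was not tested.

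**Figure D3:**
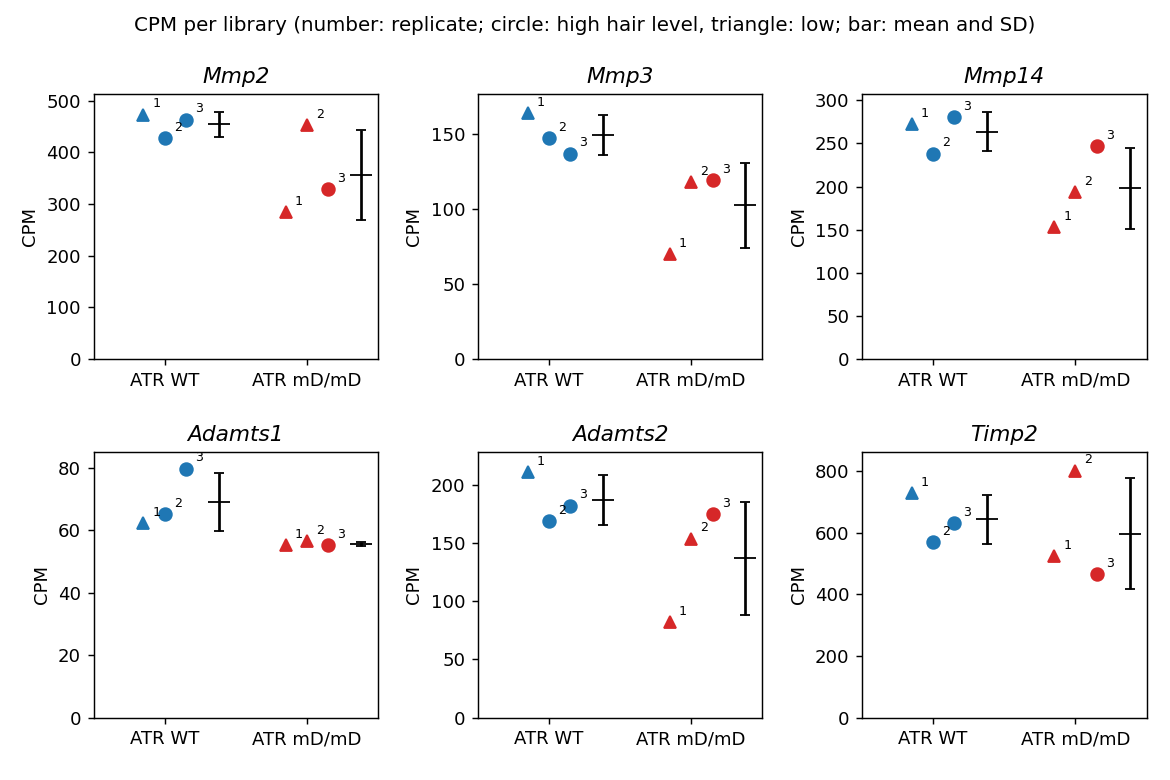
CPM of 6 genes in each library by genotype; numbers are replicates, circles libraries of high and triangles of low hair level, and bars the mean and SD of 3 libraries. Mmp3 and Adamts1 do not overlap between genotypes, and mD/mD 1 is the lowest library for Mmp2, Mmp3, Mmp14 and Adamts2.

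The remaining MMPs overlapped between genotypes. Mmp9, or gelatinase B, a product of leukocytes and keratinocytes, was at 22.2, 17.5 and 22.4 CPM in wild types and 22.2, 19.1 and 9.68 CPM in mutants. Only mD/mD 3 stood below the rest, and with the hair gene level as a covariate its log2 fold change was -0.63 (unadjusted p = 0.0358, adjusted p = 0.978, edgeR). Mmp13, the interstitial collagenase of mouse skin, had 9, 55 and 395 counts in wild types and 51, 15 and 180 in mutants, highest in WT 3 and mD/mD 3. Its levels spanned 0.248 to 8.08 CPM, with a log2 fold change of -0.46 (SE 1.30) that turned to 1.60 without WT 3. Mmp11, or stromelysin 3, an enzyme of stromal cells, was at 14.5, 26.2 and 89.4 CPM in wild types and at 16.7, 17.6 and 45.9 CPM in mutants. WT 3 was highest, and WT 2, WT 3 and mD/mD 3, of high hair level, lay above the others. The nearest libraries of high and low hair level were 1.48-fold apart. Of the membrane-type enzymes, Mmp15 differed least over the libraries, from 24.8 to 32.6 CPM, and Mmp17 was at 7.34 to 8.08 CPM in wild types and 6.87 to 10.5 CPM in mutants. For Mmp23, Mmp27 and Mmp28 the log2 fold change was 0.036 (SE 0.254), -0.30 (SE 0.276) and 0.14 (SE 0.479).

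A group of 4 MMP and ADAM genes split with Xist, a pattern picked out after their values were seen. Mmp12 (macrophage metalloelastase) was at 92.5, 68.6 and 81.0 CPM in WT 2, WT 3 and mD/mD 1. It was at 24.2, 26.3 and 31.7 CPM in WT 1, mD/mD 2 and mD/mD 3. Adam8, a leukocyte protease, was at 22.8, 24.9 and 38.9 CPM in the first 3 libraries and at 10.7, 9.70 and 12.3 CPM in the others. Mmp19 was at 17.6, 22.8 and 17.8 CPM against 8.82, 13.5 and 10.5, and Mmp25, or leukolysin, at 1.08, 1.72 and 1.49 CPM against 0.386, 0.381 and 0.630. Every gene of the table reached 1 CPM in at least 3 libraries. Mmp25 did so only in the 3 with high Xist, so its split was fixed by being listed in the table. The libraries with high Xist lay above the other 3 without overlap in 7 members in all (the others were Adam19, Adam23 and Adamtsl2) and below them in 1 (Adam3), where 4.70% of all genes did so above, 2.22% below and 6.92% in either direction. Macrophage markers (8 of 8 genes, none at 0) summed to 515, 514 and 542 CPM in the libraries with high Xist and to 350.1, 411 and 421 CPM in the others. Of these 8 genes, 3 (Adgre1, Cd68 and Mrc1) lay above without overlap, while C1qa was highest in mD/mD 3 and Cd163 in mD/mD 2, both of low Xist. Their part in these levels was not tested. Genotype differences of the 4 genes lay within 1 standard error of 0 on the log2 scale: -0.42 for Mmp12 (SE 0.597), 0.058 for Adam8 (SE 0.588), -0.24 for Mmp19 (SE 0.374) and -0.36 for Mmp25 (SE 0.687). With the level of Y-linked genes as a covariate those of Mmp12, Mmp19 and Mmp25 turned to 0.19, 0.15 and 0.26.

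**Figure D4:**
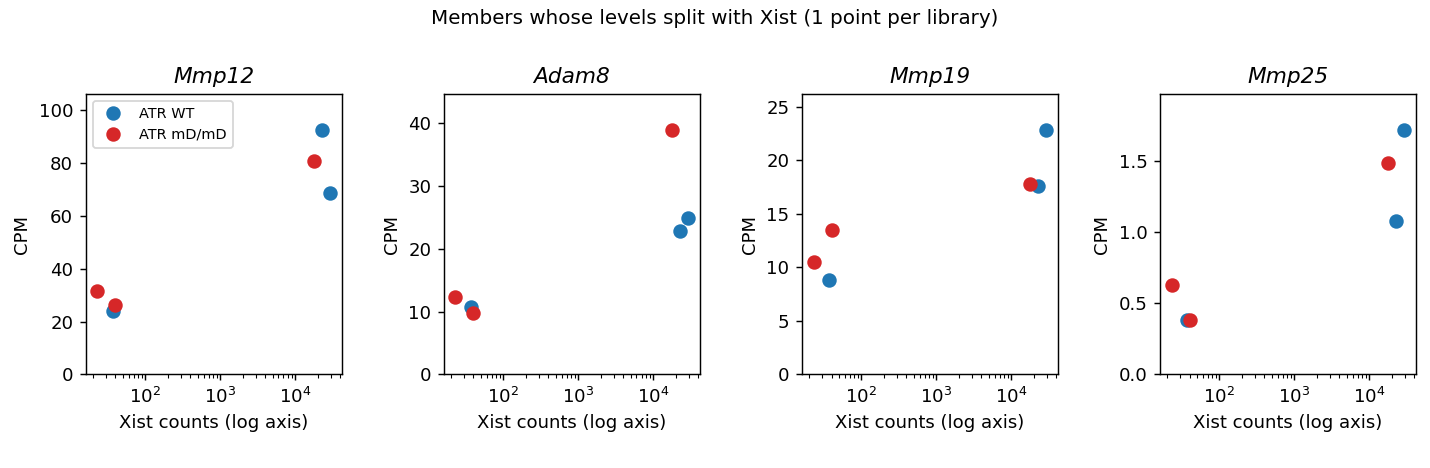
CPM of Mmp12, Adam8, Mmp19 and Mmp25 (vertical axis) against Xist counts (log axis), 1 point per library, coloured by genotype. In each panel the 3 libraries at 18050 Xist counts or more lie above the 3 at 40 or fewer, with both genotypes on each side. For Mmp25 this order was fixed by being listed in the table.

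ADAM genes were divided between the genotypes: 6 of 13 had a negative log2 fold change, with a median of 0.00073. Adam17, the main sheddase of tumour necrosis factor and of ligands of the epidermal growth factor receptor, was at 72.3, 74.5 and 87.5 CPM in wild types and 84.3, 84.5 and 65.7 CPM in mutants. Its means of 78.1 ± 8.23 and 78.1 ± 10.8 CPM (SD, n = 3) left a log2 fold change of 0.00073 (SE 0.151). Adam10, which cuts Notch receptors and cadherins, was at 79.2, 101 and 127 CPM against 89.6, 93.5 and 121, a log2 fold change of -0.017 (SE 0.214). For Adam10 the 3 libraries of high hair level were the top 3. Adam9 and Adam15, further catalytic members, had -0.018 (SE 0.188) and 0.15 (SE 0.138), and Adam33 had 0.019 (SE 0.271). These intervals are narrow beside those of Adam12 and Adam8, yet a p above the threshold does not show equal levels.

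Adam12 and Adam19 are the catalytic ADAMs with the lowest fold changes. Adam12, an enzyme of mesenchymal cells, was at 16.3, 19.3 and 13.7 CPM in WT 2, WT 3 and mD/mD 3 and at 4.60, 5.69 and 3.83 CPM in WT 1, mD/mD 1 and mD/mD 2. Thus its levels followed hair level without overlap, and its log2 fold change of -0.79 (SE 0.653) was -0.12 with the hair gene level as a covariate. Adam19 was at 16.8, 30.6 and 28.6 CPM in wild types and 20.8, 19.3 and 16.6 CPM in mutants (log2 fold change -0.42, SE 0.247, unadjusted p = 0.132, edgeR). The non-catalytic Adam11, Adam22 and Adam23, which bind other surface proteins in nerve tissue, had -0.074 (SE 0.239), 0.13 (SE 0.313) and -0.21 (SE 0.177). Adam1a and Adam3, known from sperm, were present at 0.809 and 0.677 RPKM. Adam1a was at 6.62, 4.19 and 3.62 CPM in wild types and 8.46, 8.48 and 5.07 CPM in mutants (log2 fold change 0.61, SE 0.331, unadjusted p = 0.111, edgeR), and it was lower in all 3 libraries of high hair level. It shares annotated exon bases with Mapkapk5 on its own strand and Tmem116 on the other, and reads from shared bases cannot be told apart in these counts.

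Many ADAMTS genes were ordered by hair level. In 11 of 17, all 3 libraries of high hair level lay above the other 3, and in 1, Adamts14, all 3 lay below. Over all genes the shares were 19.6% above and 17.1% below. Over all 54 members 16 lay above and 6 below: 2 and 1 of the MMP genes, 2 and 2 of the ADAM genes, 0 and 2 of the ADAMTSL genes, and 1 and 0 of the TIMP genes. The MMP genes were Mmp11 and Mmp16 above and Mmp17 below. A gap of over 1 log2 unit between the lowest library of high hair level and the highest of the others was found in 4 members (Adamts3, Adamts18, Adamts20 and Adam12), beside 2.46% of all genes. In 0 members was it found the other way, beside 0.407%. Every gene of the table reached 1 CPM in at least 3 libraries. Adamts3, Adamts18 and Adamts19 did so only in the 3 libraries of high hair level. For them the order by hair level was therefore fixed by being listed in the table. Under other scales the 22 members without overlap by hair level became 21 (DESeq2 size factors) and 19 (total counts).

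Adamts20, which acts on the proteoglycan versican and is needed for the normal spread of melanoblasts in mouse skin, had the widest gap. It was at 8.44, 10.4 and 14.5 CPM (367, 510 and 506 counts) in WT 2, WT 3 and mD/mD 3. In WT 1, mD/mD 1 and mD/mD 2 it was at 1.38, 0.829 and 1.32 CPM (50, 29 and 52 counts). Both genotypes were on both sides, and the nearest libraries of the 2 sides were 5.94-fold apart. Its promoter is the sequence of 77.3% GC printed above. Adamts18 was at 4.35, 5.81 and 4.89 CPM against 0.772, 0.343 and 0.229 CPM (189, 284 and 171 counts against 28, 12 and 9), with the nearest libraries 5.35-fold apart. Adamts3, which removes the N-terminal propeptide of procollagens and processes the lymphatic growth factor Vegfc, was at 1.72, 2.27 and 2.60 CPM against 0.579, 0.572 and 0.305 CPM. Across the genotypes the log2 fold change was -0.29 for Adamts20 (SE 1.18), -1.01 for Adamts18 (SE 1.24) and -0.40 for Adamts3 (SE 0.862), and the values were 0.36, -0.42 and 0.16 with the hair gene level as a covariate.

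**Figure D5:**
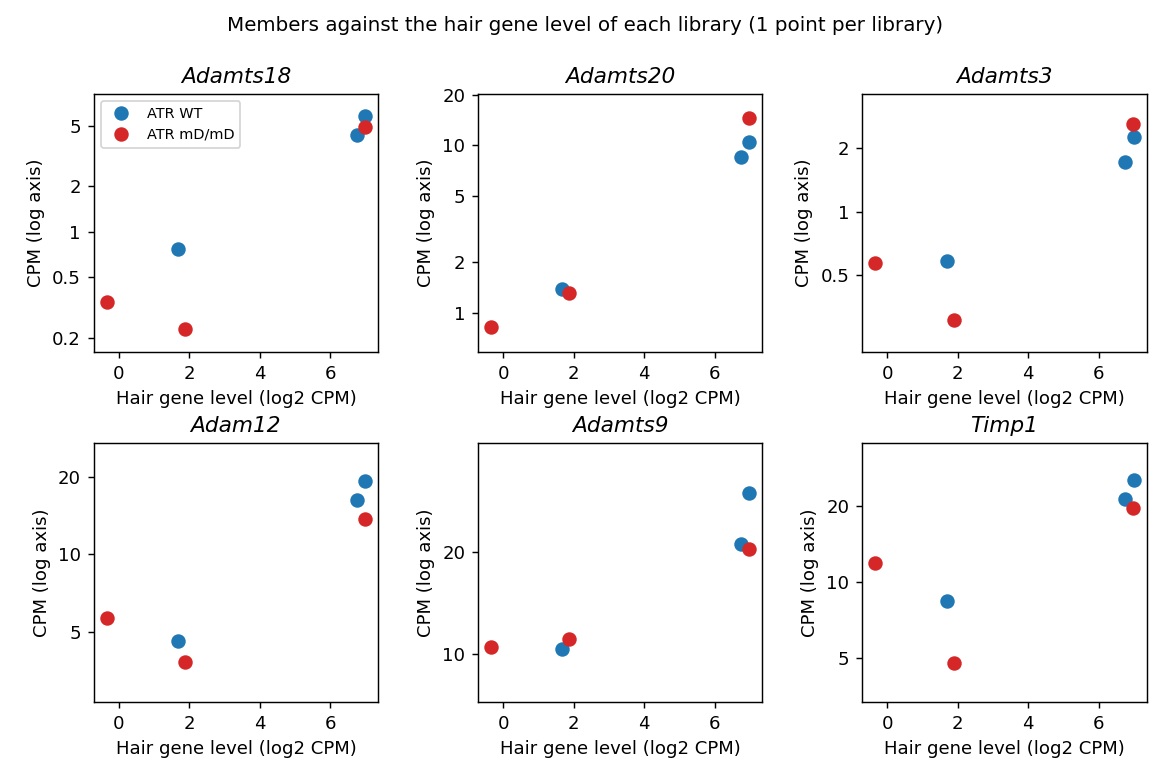
CPM (vertical, log axis) of 6 genes against the mean level of 30 hair genes in each library (horizontal, log2 CPM), 1 point per library, coloured by genotype. For each gene the 3 libraries near 7 on the horizontal axis lie above the other 3, and ATR WT and ATR mD/mD libraries stand on both sides. For Adamts3 and Adamts18 this order was fixed by being listed in the table.

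The other proteoglycan-cutting ADAMTS genes were mixed. Adamts9 was at 21.0, 29.7 and 20.4 CPM in the libraries of high hair level (WT 2, WT 3, mD/mD 3) and at 10.4, 10.5 and 11.1 CPM in the others, without overlap. Adamts15 was at 20.3, 26.1 and 18.3 CPM against 8.22, 11.6 and 11.7 CPM. Adamts5, an aggrecanase of connective tissue, showed no such order, with 93.5 to 121 CPM over the 6 libraries and a log2 fold change of 0.20 (SE 0.128, unadjusted p = 0.169, edgeR). Adamts8, next to Adamts15 on chromosome 9, was at 1.49 to 2.99 CPM and overlapped as well. Adamts7 and Adamts12, which cut cartilage oligomeric matrix protein, were higher in all 3 libraries of high hair level, as were Adamts10, Adamts17 and Adamts19. With the hair gene level as a covariate Adamts19 had a log2 fold change of 1.06 (unadjusted p = 0.0192, adjusted p = 0.978, edgeR), and mD/mD 3 was at 4.35 CPM, beside 0.689 to 1.70 CPM elsewhere. With no covariate its log2 fold change was 0.65 (SE 0.741), and -0.59 without that library.

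Adamts1 (chromosome 16, 85793827 to 85803113, minus strand, mm10) was the ADAMTS gene whose genotypes did not overlap. This protease of versican and aggrecan was at 62.2, 65.2 and 79.7 CPM in wild types and at 55.2, 56.4 and 55.2 CPM in mutants. Means were 69.0 ± 9.37 and 55.6 ± 0.725 CPM (SD, n = 3). The log2 fold change was -0.31 (SE 0.129, unadjusted p = 0.0480, adjusted p = 0.9999, edgeR), and it ran from -0.37 without WT 1 to -0.21 without WT 3. Within hair level the log2 CPM differences were -0.39 (high) and -0.15 (low). Its neighbour Adamts5 (85856173 to 85901828) had the opposite sign. Together with Mmp3 it made 2 of 54 members without overlap, or 3 with DESeq2 size factors or total counts as the scale. For all genes the share was 4.84% in either direction.

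Procollagen N-proteinases went separate ways. Adamts2, which trims the fibrillar procollagens of skin, was at 211, 169 and 182 CPM in wild types and 82.3, 154 and 175 CPM in mutants. Its lowest library was again mD/mD 1, as for the 3 collagens among the fibroblast markers and not for the other 5. The log2 fold change was -0.45 (SE 0.285, unadjusted p = 0.161, edgeR) and -0.19 without mD/mD 1. Adamts14 was at 30.9, 28.8 and 18.4 CPM against 36.3, 38.8 and 25.2 CPM (log2 fold change 0.36, SE 0.255, unadjusted p = 0.203, edgeR), and it was lower in the 3 libraries of high hair level. Adamts13, which cuts von Willebrand factor in blood, was at 50.8 to 86.1 CPM, or 12.7 RPKM, with a log2 fold change of 0.14 (SE 0.228).

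ADAMTS-like proteins lack the protease domain and bind fibrillin microfibrils and other matrix. Adamtsl4 and Adamtsl5 were the most abundant, at 12.5 and 12.4 RPKM. Adamtsl4 was at 48.3, 36.3 and 28.8 CPM in the libraries of high hair level and 63.6, 65.1 and 72.8 CPM in the others. Adamtsl5 was at 57.9, 45.1 and 48.1 CPM against 74.7, 60.6 and 65.3 CPM, so both were lower without overlap where the 11 ADAMTS genes were higher. Log2 fold changes by genotype were 0.17 (SE 0.372) and -0.030 (SE 0.215), and those of Adamtsl1, Adamtsl2 and Adamtsl3 were 0.081 (SE 0.175), -0.43 (SE 0.447) and -0.18 (SE 0.261).

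Timp2 had the highest level of the set, and no TIMP gene separated the genotypes. Timp2 was at 728, 571 and 632 CPM in wild types and 524, 802 and 467 CPM in mutants (log2 fold change -0.11, SE 0.247). Timp3, which stays bound to the matrix and also inhibits Adam17 and ADAMTS proteases, was at 376, 430.3 and 539.9 CPM against 357, 419.9 and 402 CPM (-0.19, SE 0.183). Timp1 (chromosome X, 20870166 to 20874735, plus strand, mm10), an inducible inhibitor, was at 21.4, 25.4 and 19.7 CPM in the libraries of high hair level and 8.38, 11.9 and 4.77 CPM in the others. Its genotype difference was -0.60 (SE 0.588), and -0.12 with the hair gene level as a covariate. Timp4 was at 25.4, 11.2 and 9.05 CPM against 37.5, 12.8 and 13.5 CPM by genotype (0.48, SE 0.564), highest in WT 1 and mD/mD 1. Timp3 and Timp4 share exon bases with Syn3 and Syn2, 2 of the 9 members with such a partner in the table.

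Sums of other markers also parted by hair level. Melanocyte markers (8 of 8 genes, none at 0) summed to 620.2 to 884 CPM in the libraries of high hair level and 155 to 213 CPM in the others. Skeletal muscle markers (8 of 8) went the other way, with 7044 to 12442 CPM against 20996 to 32503 CPM, and endothelial markers (8 of 8) were at 318 to 332 CPM against 379 to 442 CPM. Gene by gene, 7 of 8 melanocyte genes lay above without overlap, beside 19.6% of all genes. Below without overlap lay 8 of 8 skeletal muscle and 6 of 8 endothelial genes, beside 17.1% of all genes. Cartilage markers, of which 3 of 6 were listed, summed to 7.57 to 26.0 CPM. Their part in the ADAMTS and TIMP values was not tested.

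Partners of these proteases gave 1 call. Of 14 listed other metalloproteases, Ecel1, an endopeptidase of nerve cells, was the only gene past the threshold, where 7 of 14484 genes, 0.0483%, were. Ecel1 was at 26.2, 49.2 and 33.5 CPM in wild types and 0.343, 0.406 and 0.515 CPM in mutants. There it fell by 6.42 on the log2 scale (SE 0.344, edgeR adjusted p = 0.0041). Every gene of the table reached 1 CPM in at least 3 libraries, and Ecel1 did so only in wild types. That its genotypes did not overlap was therefore fixed by being listed in the table. Ide and Pappa2 of that list had 0.40 (SE 0.163) and 0.74 (SE 0.368). None of 22 activators, trafficking factors and other inhibitors passed. In that list 14 were lower, with a median of -0.089, and Papln, a matrix protein related to ADAMTS-like proteins, was at 2.81, 3.61 and 3.85 CPM against 4.38, 5.28 and 4.35 CPM without overlap (0.45, SE 0.235). Pcolce, which enhances procollagen C-proteinases, and Tspan14, a tetraspanin partner of Adam10, had -0.40 (SE 0.237) and -0.22 (SE 0.141). None of 12 plasminogen system genes passed, with 6 lower and 6 higher. Plau, Plat and Hgf had 0.18 (SE 0.318), -0.13 (SE 0.228) and -0.45 (SE 0.512).

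Substrates were read the same way. None of 23 proteoglycan and microfibril genes passed, although 19 were lower in mutants, at a median log2 fold change of -0.23 against 0.0070 over all genes. Inside the libraries of high hair level 18 of the 23 were lower in mutants, with a median difference of -0.28 in log2 CPM. Inside those of low hair level 9 of the 23 were lower, with a median of 0.081, so the direction was not shared. This difference was not tested. Bcan, or brevican, a substrate of Adamts4 and Adamts5, was at 2.65, 2.83 and 1.88 CPM in wild types and 1.09, 0.686 and 0.630 CPM in mutants, without overlap (log2 fold change -1.61, SE 0.338, unadjusted p = 0.00246, adjusted p = 0.9999, edgeR). Fbn2 and Bgn had -1.31 (SE 0.624) and -0.38 (SE 0.227). In 10 of these 23 genes the libraries of high hair level lay above the others (19.6% of all genes), among them Fbn2 at 11.6, 9.56 and 5.90 CPM against 3.28, 2.03 and 1.96 CPM. None of 23 shed ligands and receptors passed, with 14 lower and a median of -0.086. The epidermal growth factor receptor ligands Epgn and Hbegf had -1.07 (SE 0.587) and -0.78 (SE 0.473), and Tnf had -1.04 (SE 0.612). Single libraries stood far above the rest in 2 of these: WT 1 for Epgn, at 12.7 CPM beside 2.06 to 4.72, and WT 2 for Tnf, at 14.5 CPM beside 3.06 to 3.80.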

How the data were processed

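Skin, in 6 samples, was measured by RNA sequencing of oligo dT-selected RNA with the TruSeq RNA v2 kit, per the labels' protocols, a kit that does not mark strand. FastQC, TopHat2 2.0.12, edgeR and the mm10 build are named per the submitters' processing notes. Which counter and annotation were used is not given in the sources used here. Whole-number read counts per gene, not normalized, are what the authors deposited for each library. Per the file headers, the deposited results add log2 fold changes and mean log2 CPM, with a raw and an adjusted p-value, none of which is used below.

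Of 14486 rows, 2 name no gene, held 4.93% to 5.72% of counts and were left out. TMM scaling and the quasi-likelihood fit of edgeR 4.0.16 (R 4.3.3) covered all 14484 genes, with Benjamini-Hochberg adjustment and no covariate. SE is the size of the log2 fold change over the root of F. The fit was tested on simulated data. Libraries within a group differed beyond sampling noise (chi-square per degree of freedom 55.3 or more). Log2 CPM used a prior count of 2. Positions and exon lengths come from GENCODE M21 (mm10) and promoters from RefSeq (GRCm38.p6). Members and lists were chosen with earlier results of these data known. Values are given for Mmp2, Mmp14, Adamts1, every TIMP gene, and, in each other subfamily, the 4 genes highest per length, the 4 with the smallest genotype p and the 4 with the widest hair gap, and for the 3 smallest p of each partner list; further members are named for their role or for values already seen. Alternatives were DESeq2 1.42.0, limma-voom (limma 3.58.1), DESeq2 size factors, other filters, covariates, the replicate number as a block and leaving out each library.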

Additional observations from a re-analysis of the deposited data

How the results depend on the processing

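No member passed the adjusted threshold under any of the 14 alternatives of the genotype test (the lowest adjusted p was 0.708, without ATR mD/mD 3, edgeR). The count at an unadjusted p under 0.05 ran from 0 to 9 when 1 library was left out and was 1 with the replicate block. Over all genes the share ran from 1.01% to 7.01% when 1 library was left out and was 2.13% with the block. Deviations from the group means were compared between libraries of the 2 genotypes with the same replicate number. They correlated at 0.63, -0.51 and 0.57 for numbers 1, 2 and 3, and not every library correlated best with its own number. All these correlations were positive between libraries of the same hair level and negative otherwise. Whether the numbers pair the samples therefore cannot be told from them. Under the block, 40 members were lower, with a median of -0.16. The number of lower members was 28 to 40 over all alternatives. Of the 54 members, 22 kept the sign of their log2 fold change in all 14 alternatives, and 30 turned when 1 library was left out. Neither filter on low counts removed a gene, and DESeq2 and its size factors turned no sign. Under the hair covariate 17 signs turned: Mmp11 0.033, Mmp13 0.76, Mmp28 -0.16, Adam8 -0.22, Adam9 0.089, Adam10 0.17, Adam17 -0.052, Adam33 -0.094, Adamts3 0.16, Adamts4 0.35, Adamts7 0.21, Adamts10 0.12, Adamts12 0.34, Adamts13 -0.0049, Adamts15 0.092, Adamts20 0.36 and Adamtsl4 -0.25. With the Y-linked level as covariate 13 turned: Mmp12 0.19, Mmp13 0.56, Mmp19 0.15, Mmp23 -0.15, Mmp25 0.26, Adam3 -0.15, Adam9 0.10, Adam10 0.041, Adam11 0.021, Adamts4 0.21, Adamts7 0.066, Adamts8 0.13 and Adamts10 0.12. In limma-voom 6 turned (Mmp28 -0.038, Adam8 -0.18, Adam9 0.013, Adam10 0.0031, Adam17 -0.0028 and Adam33 -0.0022), and with the replicate block 5 did (Mmp28 -0.017, Adam8 -0.20, Adam9 0.012, Adam17 -0.0032 and Adam33 -0.0036). With 1 library left out, log2 fold changes that turned ran between these values: Mmp11 -1.34 to 0.38, Mmp13 -1.81 to 1.60, Mmp15 -0.17 to 0.041, Mmp19 -0.53 to 0.064, Mmp23 -0.20 to 0.24, Mmp25 -1.07 to 0.16, Mmp28 -0.39 to 0.51, Adam3 -0.23 to 0.28, Adam8 -0.82 to 0.39, Adam9 -0.16 to 0.17, Adam10 -0.16 to 0.16, Adam11 -0.15 to 0.081, Adam17 -0.059 to 0.11, Adam22 -0.10 to 0.37, Adam33 -0.17 to 0.24, Adamts3 -1.81 to 0.053, Adamts4 -0.60 to 0.37, Adamts7 -0.44 to 0.056, Adamts8 -0.28 to 0.17, Adamts10 -0.32 to 0.16, Adamts12 -1.31 to 0.24, Adamts13 -0.099 to 0.29, Adamts19 -0.59 to 1.03, Adamts20 -2.65 to 0.23, Adamtsl1 -0.015 to 0.20, Adamtsl3 -0.33 to 0.0029, Adamtsl4 -0.072 to 0.48, Adamtsl5 -0.21 to 0.19, Timp2 -0.38 to 0.043 and Timp4 -0.22 to 1.09. The cause was not tested. Depth limits the low genes: Mmp25 had 14 to 84 counts per library, and the lowest libraries of Mmp13 and Adamts18 held 9 counts each.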
